A study of Homo sapiens with 16 samples.

Results

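H3K27ac, the acetylation of histone H3 at lysine 27, was compared between untreated and TWEAK-treated Hs578T cells that lack Fn14, to ask which regions and genes, if any, responded to the ligand without its receptor. Hs578T is an established human triple-negative breast cancer line. The comparison rests on 4 peak lists, 2 from untreated and 2 from TWEAK-treated Fn14 KO cells, out of 16 lists in the series. The series also holds Hs578T control cells and MDA-MB-231 cells of both genotypes, each untreated and TWEAK-treated with 2 lists per group. Every culture was serum-starved for 8 h, and the TWEAK groups then received 10 ng/ml TWEAK for 48 h, with a fresh dose after 24 h. The knockout was made with CRISPR and 2 guides against Fn14, and edited cells were picked by western blot and checked by Sanger sequencing. The study's list of genotyping primers speaks of clones, and the sources used here do not give how many clones the lists came from. The untreated Fn14 KO cells carried the same knockout as the treated ones. The study's methods describe the ChIP-seq samples of its cell lines as biological replicates, and the labels do not tie them to a culture or day. Peaks of the 4 lists that shared at least 1 bp were merged into 52308 regions, beside 64545 when all 16 lists were merged. A region was called gained when both TWEAK lists and no untreated list held a peak there, and lost in the reverse case, which gave 608 gained and 480 lost regions.

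TWEAK is a cytokine of the TNF family encoded by TNFSF12, and Fn14, encoded by TNFRSF12A, is its receptor. Bound Fn14 recruits TRAF adaptors and cIAP ligases, which frees the kinase NIK to activate non-canonical NF-κB through p100 (NFKB2) and RELB, and it also feeds the JNK pathway and AP-1 factors. H3K27ac marks active promoters and enhancers, so a response that reaches the nucleus is read as peaks that appear, disappear or change in height near target genes such as NFKBIA, BIRC3, CSF2 or ICAM1.

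Peaks held by both TWEAK lists alone, or by both untreated lists alone, were weak. The sequences below are that of the gained region with the highest −log10 q-value in the weaker of its 2 lists, followed by those of the regions with the smallest p for a TWEAK effect that differed between control and Fn14 KO cells, 1 in each direction. They are shown so that the strongest gain without the receptor can be set beside sites that control cells changed and knockout cells did not. Each is read 5′ to 3′ on the plus strand of hg38 from the middle of the region, and capitals mark the AP-1 motif TGANTCA, searched on both strands.
Gained, unlocalised contig of chromosome 14 (chr14_KI270725v1_random:83323-83622): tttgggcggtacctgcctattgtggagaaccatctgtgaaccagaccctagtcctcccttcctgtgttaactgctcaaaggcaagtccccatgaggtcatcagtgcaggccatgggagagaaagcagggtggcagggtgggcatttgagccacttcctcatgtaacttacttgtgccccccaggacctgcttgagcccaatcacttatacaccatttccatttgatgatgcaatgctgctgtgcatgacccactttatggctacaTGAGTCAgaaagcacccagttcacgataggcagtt
Raised in control cells, intron near GPR107 (chr9:130073053-130073352): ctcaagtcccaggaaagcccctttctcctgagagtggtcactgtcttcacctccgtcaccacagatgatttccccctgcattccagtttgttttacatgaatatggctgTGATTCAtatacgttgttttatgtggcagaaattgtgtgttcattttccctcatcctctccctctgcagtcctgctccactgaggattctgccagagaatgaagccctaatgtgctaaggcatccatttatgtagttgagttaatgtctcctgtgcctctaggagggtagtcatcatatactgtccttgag
Lowered in control cells, intron near PLEKHA7 (chr11:16981689-16981988): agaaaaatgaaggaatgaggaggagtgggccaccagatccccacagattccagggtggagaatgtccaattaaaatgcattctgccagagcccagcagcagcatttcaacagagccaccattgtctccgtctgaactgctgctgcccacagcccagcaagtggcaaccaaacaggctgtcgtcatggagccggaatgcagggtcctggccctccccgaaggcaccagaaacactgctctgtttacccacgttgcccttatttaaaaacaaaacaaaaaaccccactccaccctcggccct

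The window on the contig and that near GPR107 each held 1 match to the motif, and that near PLEKHA7 held none. Across the 300 bp at the middle of each region, 29.9% of gained and 31.7% of lost regions held TGANTCA, beside 31.6% of the regions with a peak in 1 untreated and 1 TWEAK list, 24.2% of the regions in all 4 lists and 25% of all merged regions. The motif was therefore about as frequent in the called regions as in weak regions that did not separate the treatments. Median G+C was 45.0% in gained, 43.7% in lost and 47.0% in all merged regions.

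Of the 52308 regions, 38425 (73.5%) had a peak in all 4 lists, 3361 in 3, 3587 in 2 and 6935 in 1. The 608 gained regions were 1.16% of all regions and the 480 lost regions 0.918%, together 1088. If the 4 lists were paired by replicate number instead, 1410 regions were held by 1 pair alone, and 1089 were held by a pair that crossed treatment and number. The pairing by treatment thus gave 1 region fewer than the crossed pairing and 0.871 times the mean of the other pairings, and its exact permutation p over the 3 pairings was 1, where the smallest value this design allows is 0.333. The plot of regions with a peak in exactly 2 lists shows that gained regions outnumbered lost ones but fell below both sets that share a replicate number.

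**Figure D1:**
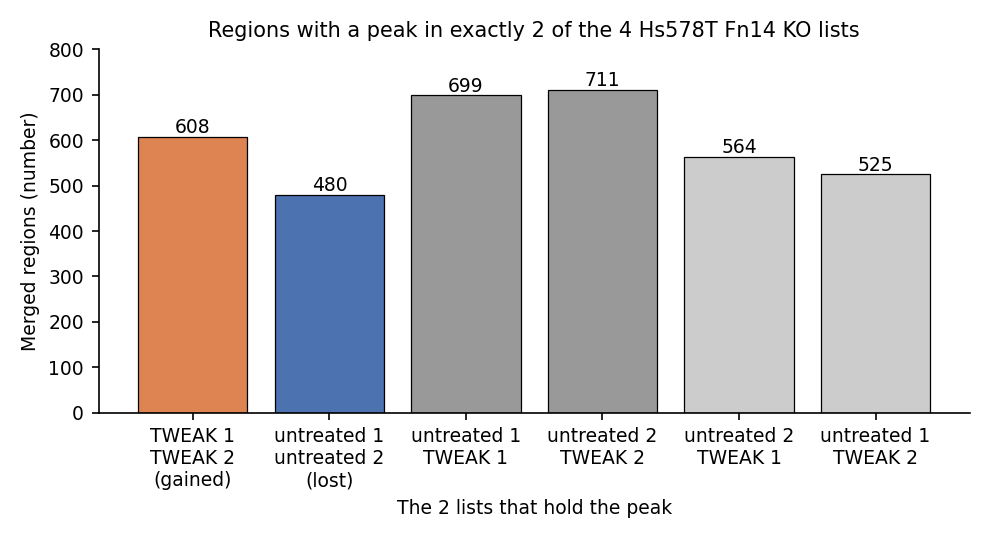
Number of merged regions (vertical axis) with a peak in exactly 2 of the 4 Hs578T Fn14 KO lists, for each pair of lists (horizontal axis), with 1 bar per pair. The 608 gained and 480 lost regions are flanked by 699 and 711 regions shared by lists of the same replicate number and by 564 and 525 regions of the crossed pairs.

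In control cells of the same line the rule gave 2863 gained and 2691 lost regions among 55475, 7.89 times the mean of that line's other pairings, which gave 732 and 675. Of the 608 regions gained without Fn14, 31 (5.10%) overlapped a region gained in control cells and 46 (7.57%) a region lost there. These were 1.08% and 1.71% of the control cells' own gained and lost regions. Of the 480 regions lost without Fn14, 13 (2.71%) overlapped a control gain, 0.454% of those, and 32 (6.67%) a control loss, 1.19% of those. Mixed regions of the knockout had about the same shares, 4.20% in control gains and 7.28% in control losses, and all merged regions had 1.25% and 4.74%.

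Gained and lost regions had peaks near the limit of detection. The deposited lists hold no peak with a −log10 q-value under 1.00, so an absent peak means a signal under that limit, not no acetylation, and the depth of the libraries is unknown. The lower of the 2 −log10 q-values had a median of 1.5 in gained and 1.52 in lost regions, beside 1.56 in regions with 1 untreated and 1 TWEAK list and 9.23 in regions of all 4 lists. It reached 2 in 97 of 608 gained regions (16%) and in 91 of 480 lost regions (19.0%), against 89.7% of the regions in all 4 lists. Median width was 662 bp for gained and 676 bp for lost regions, and 1939 bp for regions in all 4 lists. Median fold enrichment over input was 2.91 for gained, 2.95 for lost and 6.08 for regions in all 4 lists. The curves of peak strength show gained, lost and mixed regions lying almost on top of each other, far to the left of the regions that every list held.

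**Figure D2:**
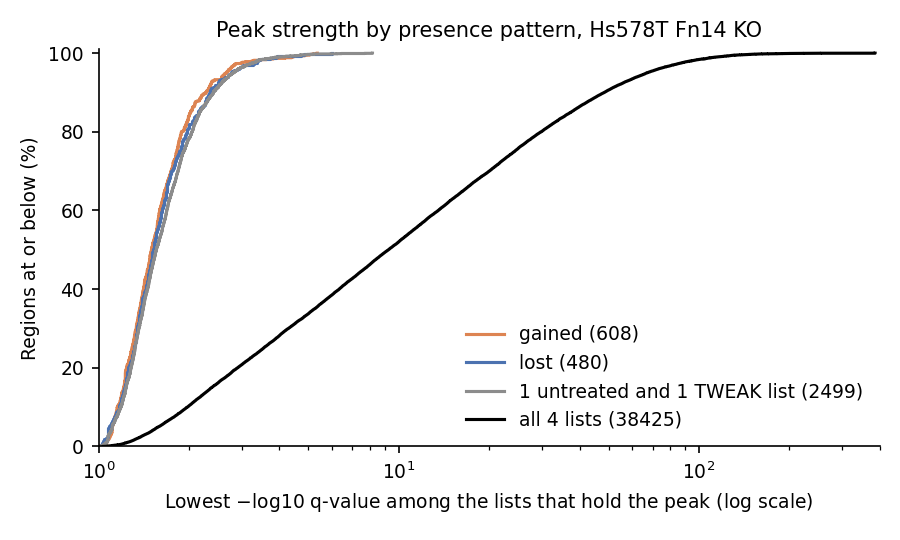
Cumulative share of regions (vertical axis, %) by the lowest −log10 q-value among the lists that hold the peak (horizontal axis, log scale), for gained, lost, mixed (1 untreated and 1 TWEAK list) and invariant regions of Hs578T Fn14 KO cells. Gained regions stop at 5.35 and lost regions at 5.98, while regions of all 4 lists reach 386.

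The called regions were spread over the genome. Within 2 kb of a protein-coding start site lay 56 gained regions (9.21%) and 36 lost regions (7.50%), compared with 10.9% of mixed regions and 32% of regions in all 4 lists. Introns held 39.8% of gained and 50.8% of lost regions, and 42.1% and 32.9% lay between genes, while mixed regions had 42.0% in introns and 39.0% between genes. About as many of each kind lay close to a constant peak: 53.8% of gained, 53.5% of lost and 54.3% of mixed regions lay within 12.5 kb of a region held by all 4 lists. Every chromosome from 1 to 22 and X held both kinds, with shares from 0.422% (chromosome 19) to 1.89% (X) of its regions gained and from 0.585% (chromosome 2) to 1.41% (chromosome 4) lost.

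The strongest gained region lay on an unlocalised contig of chromosome 14, 895 bp wide, with −log10 q-values of 5.35 in TWEAK 1 and 5.77 in TWEAK 2 and a fold enrichment of 4.61 and 4.76. The next lay just upstream of SYT7, a calcium sensor of vesicle exocytosis, with a fold enrichment of 4.05 in TWEAK 1 and 4.93 in TWEAK 2. It was listed in both untreated control lists and in 1 control TWEAK list. The third, at chr9:76375081-76375920, lay 18.2 kb from the start of RFK, the riboflavin kinase, with a fold enrichment of 4.85 and 4.34. It too was held by both untreated control lists, and by neither control TWEAK list.

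The fourth lay in an intron 8.12 kb downstream of the start of ALG1, a mannosyltransferase of N-glycan synthesis, with a fold enrichment of 4.92 in TWEAK 1 and 4.51 in TWEAK 2, and no other list of the series held it. Then came regions near POLR3K, a subunit of RNA polymerase III, with 4.11 and 4.71 close to the end of the chromosome, where reads, as on the contig, may map to similar copies, and 56.9 kb from ANKRD46 with 3.90 and 4.12. The region nearest VEGFA, the vascular growth factor, lay 137 kb downstream of its start at chr6:43910929-43911302, with 4.10 and 3.80. Both it and the ANKRD46 region were held by all 4 control lists, so TWEAK did not separate their control samples. The last of the top 10 lay over SPANXA1, a cancer-testis antigen gene with near-identical copies between which reads may be split (4.05 and 4.79), just upstream of SNX22, a sorting nexin (4.07 and 3.80), and 125 kb from ODAD2, a ciliary docking protein (4.0 and 3.76). Among these 10 regions, 8 were listed in at least 1 control list.

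The strongest lost region lay 17.6 kb downstream of the start of ACTA1, the skeletal muscle actin, with a fold enrichment of 6.92 in untreated 1 and 4.85 in untreated 2, and a width of 243 bp. All 4 control lists held it. The second, in an intron, 50.7 kb from the STPG4 start, had 5.49 and 4.39 and was held by 1 untreated and both TWEAK control lists. The third lay at the start of KRTAP2-1, a hair keratin-associated protein of a multigene family, with 4.46 and 4.95.

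The other lost regions of the top 10 had lower values of 3.50 to 4.29. They lay near SLC24A3, a sodium, potassium and calcium exchanger (4.29 in untreated 1 and 4.13 in untreated 2), POP1, a subunit of RNase P (4.08 and 3.53), SSX2IP (3.63 and 3.50), FBXO11, an F-box protein (4.02 and 4.18), CBLB, a ubiquitin ligase (3.57 and 3.79), MVB12B, of the ESCRT-I complex (3.57 and 3.74), and KCNQ5, a potassium channel (4.14 and 3.54). The SLC24A3 region was listed in both TWEAK lists and no untreated list of the control cells, the opposite of its pattern without Fn14. The CBLB region was in no control list. In both directions the weaker of the 2 −log10 q-values fell to between 3.40 and 3.62 by the tenth region.

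Looked up in the 12 other lists, the called regions were listed about as often as mixed regions. Of the 608 gained regions, 117 (19.2%) were in no other list and 30 (4.93%) in all 12, and of the 480 lost regions 99 (20.6%) were in none and 11 (2.29%) in all 12. Mixed regions had 17.4% and 4.52%, and regions of all 4 lists 0.622% and 74.8%. In Hs578T control cells, 48.8% and 40.3% of the gained regions had a peak in the untreated lists and 34.0% and 42.4% in the TWEAK lists. In MDA-MB-231 control cells the shares were 25% and 40.1% untreated and 32.2% and 34.2% with TWEAK. In the Fn14 KO cells of that line they were 43.1% and 21.4% untreated and 28.8% and 25% with TWEAK. The groups overlapped in all 3 kinds of cells, and the widest gap inside a group was that between the untreated MDA-MB-231 Fn14 KO lists.

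The mean difference, TWEAK minus untreated, was −3.67 percentage points for gained regions, with an exact permutation p of 0.444 within cell line and genotype (216 arrangements, smallest possible p 0.00926, adjusted p 0.444 over both tests). Its sign turned to 0.247 points when a peak had to cover at least 50% of the region. For lost regions it was −4.93 points, with an exact permutation p of 0.278 (adjusted p 0.444), and only the Hs578T control lists did not overlap (46.5% and 41.9% untreated, 33.8% and 39.2% with TWEAK). The plot of these shares shows that regions gained without Fn14 were not listed more often after TWEAK in Hs578T control cells.

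**Figure D3:**
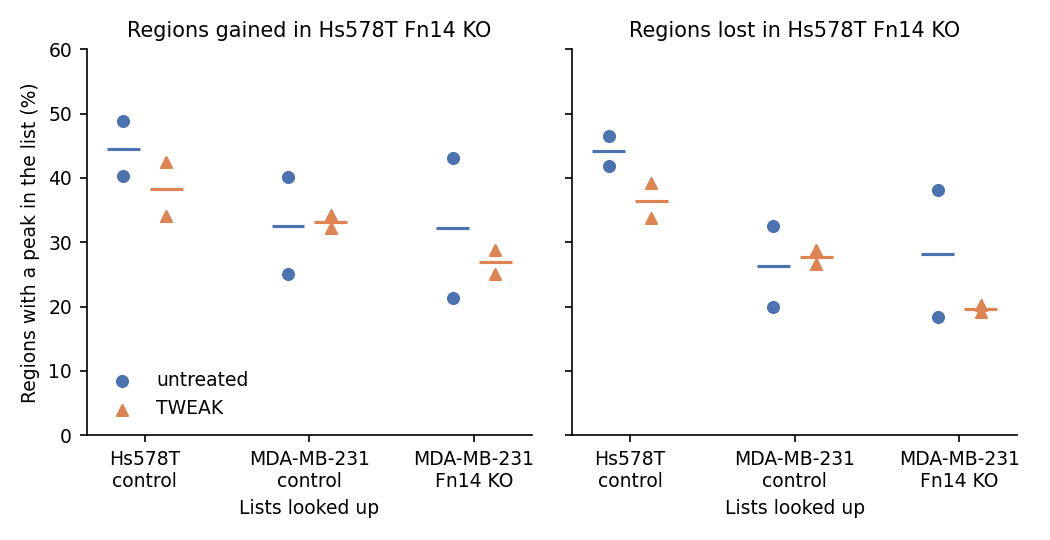
Share of the 608 gained (left) and 480 lost (right) regions of Hs578T Fn14 KO cells with a peak in each of the 12 other lists (vertical axis, %), by cells and treatment. Points are lists and short lines are means of 2; for gained regions, untreated Hs578T control lists sit at 48.8% and 40.3% and TWEAK lists at 34.0% and 42.4%.

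At the level of genes, 12089 of 19702 protein-coding genes had a peak within 2 kb of a start site in all 4 lists and 6928 in none. A start-site peak was gained with TWEAK by 30 genes (0.152%) and lost by 22 genes (0.112%). The patterns shared by lists of the same replicate number held 57 and 30 genes, and the crossed ones 42 and 22. Of the gained genes, 28 had a gained region at the start, and the other 2, TMEM45B and EXOC3L1, had a region of all 4 lists whose peak reached into the window in the TWEAK lists alone. Fold enrichment at TMEM45B was 15 in TWEAK 1 and 13.7 in TWEAK 2, and at EXOC3L1 it was 6.36 and 7.49, above all other gained start sites.

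Beside SYT7, SPANXA1 and SNX22, the highest gained start sites belonged to SLC45A4, a transporter, with a fold enrichment of 3.27 in TWEAK 1 and 3.86 in TWEAK 2, PAX9, a developmental transcription factor (3.69 and 3.45), and VASH2, a tubulin carboxypeptidase subunit (2.99 and 3.08). Then followed RTN4RL2, CA2, COL16A1, LIPE, MEN1, ZC4H2, PLAAT1, DRAXIN, RAPGEFL1, C11orf86, PEPD and CSRNP3, all with a lower −log10 q-value between 1.53 and 2.08. CA2 is a carbonic anhydrase, COL16A1 a collagen chain, LIPE the hormone-sensitive lipase and MEN1 the tumour suppressor menin. At COL16A1 the TWEAK lists differed from each other, with 4.61 in TWEAK 1 and 3.04 in TWEAK 2, and its start also touched a region held by all 4 lists.

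Among lost start sites, NHSL2 was the highest (7.51 in untreated 1 and 6.20 in untreated 2), again through the edge of a region held by all 4 lists. LRRC63 followed with 4.10 and 3.41, then GUCY1B1, the beta subunit of soluble guanylate cyclase, with 3.09 and 3.66, and ARRDC4, an arrestin-domain protein, with 3.25 and 4.10. Among the rest of the first 20 were FGD1, ONECUT1, CABCOCO1, PRSS2, EFR3B, TEKT3, MOV10L1, PPP2R2C, WNT2, FOXB1, DTHD1, SUSD5, SPINT1, CLUAP1 and OR2F2. ONECUT1 and FOXB1 are transcription factors, WNT2 is a secreted ligand, and PRSS2 is a trypsinogen gene with close copies. FOXB1 was the other lost gene without a lost region at its start. None of the genes gained or lost at the start site belonged to the pathway or marker lists described next.

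The genes of the TWEAK pathway and its known targets lay near called regions of the knockout cells about as often as other genes did. The lists of receptors, signalling proteins, NF-κB subunits and inhibitors, cytokines, AP-1 factors, JNK and p38 kinases, NAD enzymes and invasion genes held 135 genes. Of these, 103 had a start-site peak in all 4 lists, 26 in none and 6 in 1 to 3. A gained region lay within 50 kb of the start of 6 genes (4.44%), beside 3.9% of all protein-coding genes, and a lost region near 5 genes (3.70%), beside 2.89%. Both shares were close to the background. In control cells the same rule reached 42 of the 135 genes with gained regions (31.1%, against 12.9% of all genes) and 28 with lost regions (20.7%, against 14.5%).

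The 6 genes near a gained region were TRAF1 and IKBKB of the signalling list, the chemokine CXCL11, the AP-1 factor FOSL2, and TIMP1 and TNC of the matrix list. The region 17.1 kb from TRAF1 had a fold enrichment of 2.69 in TWEAK 1 and 2.76 in TWEAK 2, that 22.0 kb from FOSL2 had 2.71 and 2.69, and that 44.8 kb from IKBKB had 2.63 and 2.74. The CXCL11 region, 48.7 kb away in an intron and nearest to the start of ART3, was the strongest with 3.24 and 3.40, and all 4 control lists held it. The TIMP1 region, 40.5 kb away, had 2.65 and 4.09, and the TNC region, 49.0 kb away, had 3.04 and 2.53. Each of these peaks was within the range of a weak peak, with a lower −log10 q-value between 1.02 and 2.56.

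The 5 genes near a lost region were TNFAIP3, which encodes the NF-κB inhibitor A20, NFKB2, JUNB, MAP3K1 and NAMPT. The TNFAIP3 region, 12.9 kb from the start, had a fold enrichment of 3.46 in untreated 1 and 3.14 in untreated 2, and in control cells 1 untreated and both TWEAK lists held it. The JUNB region, 4.43 kb away, had 3.0 and 3.07, the MAP3K1 region 2.75 and 3.08, and the NFKB2 region, 44.2 kb away, 2.90 and 2.59. The NAMPT region, in an intron at chr7:106269993-106270576, had 2.78 and 2.59, and only 1 control list, a TWEAK list, held it. NAMPT is the rate-limiting enzyme of NAD salvage. Among the marker lists, a gained region lay near ITGB4 (2.68 and 2.61) and lost regions near AXL (3.02 and 3.34) and the neighbours KRT8 and KRT18, which share 1 region (2.85 and 3.14).

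Fold enrichment was then compared in the regions that all lists held. In the 4 knockout lists, 38425 regions were tested with limma on median-centred log2 fold enrichment, and after Benjamini-Hochberg adjustment 0 were higher (0%) and 0 lower (0%) with TWEAK, the smallest adjusted p being 1.00. At an unadjusted p under 0.05 there were 472 higher and 537 lower regions, 2.63% of those tested. With replicate number as a block in the fit there were 905 and 1092. The smallest limma adjusted p of that fit was 0.168. Between the 5th and 95th percentile the difference, TWEAK minus untreated, ran from −0.22 to 0.21 on the log2 scale, around a median of −0.01. Its standard error had a median of 0.14 per region. No region differed by 2-fold and 10 of 38425 by over 1.5-fold.

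The regions with the smallest p were named without a call. RPH3A, a synaptic vesicle protein, had the lowest p on the higher side, in a region 7.18 kb upstream of its start with a fold enrichment of 2.95 and 3.28 untreated and 4.86 and 5.14 with TWEAK. The region 31.4 kb upstream of NID1, a basement membrane protein, had 13.1 and 13.8 untreated and 16.4 and 23.3 with TWEAK, a difference of 0.54 ± 0.13 (log2, SE). Its groups did not overlap, and it passed the test only when TWEAK 1 was left out (0.80, limma adjusted p 0.00117), a fit with 1 TWEAK list. CCDC88B had 3.73 and 3.07 untreated against 5.48 and 5.0, NTF3 3.06 and 2.63 against 3.86 and 4.95, and TRPS1 2.95 and 2.75 against 4.06 and 4.35.

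On the lower side the region nearest NKAIN3 had a fold enrichment of 5.30 and 4.89 untreated and 3.07 and 3.16 with TWEAK, a difference of −0.71 ± 0.15 (log2, SE). At the start of RTL9 it was 9.55 and 11.1 untreated against 7.16 and 6.23, and at that of ZNF532 8.05 and 6.96 against 5.32 and 4.6. The start of APEX1, a DNA repair nuclease, had 19.3 and 19.8 against 14.3 and 15.4, and the region nearest CBLL2 5.31 and 4.83 against 2.99 and 3.61. In each of these 10 regions the groups were apart, and in each the limma adjusted p was 1.00.

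The 8 Hs578T lists held 32967 regions in common, in which both genotypes were fitted together. With TWEAK, 4839 regions (14.7%) were higher and 4405 (13.4%) lower in control cells, while in Fn14 KO cells 0 passed in either direction and 718 (2.18%) had an unadjusted p under 0.05. The TWEAK effect differed between the genotypes in 4378 regions (13.3%) by the limma interaction test at an adjusted p under 0.05. That number was 2390 without control TWEAK 1 and 2906 without Fn14 KO untreated 2, the 2 libraries whose removal moved it by over 1.5 times. Control TWEAK 1 covered 77.8 Mb, less than the 84.0 to 86.6 Mb of the other control lists, and the part of this in the calls was not tested. In the 4839 regions that rose in control cells the median effect was 0.54 there and 0.00 in knockout cells, and 2384 of them (49.3%) differed between genotypes. In the 4405 regions that fell, the medians were −0.56 and −0.01, and 1906 (43.3%) differed. Both sets were chosen by the control effect of this same fit, which also enters the interaction. Their control medians and their shares that differed are therefore raised by the choice and are no separate evidence. Of the regions that rose in control cells 51.5% lay above 0 in knockout cells, and of those that fell 44.3% did, beside 49.3% of all regions. The plot of both effects shows a horizontal band: control effects spread widely along it, and knockout effects stay near 0 over its whole length.

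**Figure D4:**
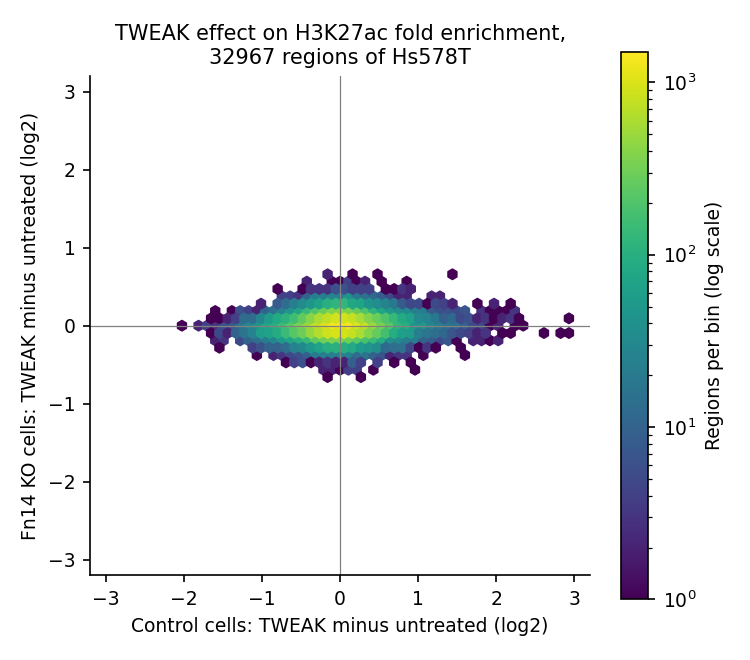
TWEAK effect on H3K27ac fold enrichment (TWEAK minus untreated, log2) in control cells (horizontal axis) and Fn14 KO cells (vertical axis) for 32967 regions of Hs578T, as hexagons coloured by the number of regions on a log scale. Between the 5th and 95th percentile, control effects run from −0.63 to 0.64 and knockout effects from −0.20 to 0.21.

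The regions with the smallest p for a difference between genotypes showed a TWEAK effect in control cells and values near 0 in knockout cells. In the intronic region near GPR107 whose sequence is given above (chr9:130071542-130074864), fold enrichment in control cells was 4.06 and 4.39 untreated and 33.6 and 33.1 with TWEAK. In Fn14 KO cells it was 4.34 and 4.72 untreated and 4.16 and 4.53 with TWEAK, so that the effect was 2.94 ± 0.14 (log2, SE) in control and −0.05 ± 0.14 in knockout cells (limma adjusted p 1.19e-08 for the difference). The regions next in line lay 72.1 kb from TBX2, a T-box factor (2.82 in control, −0.04 in knockout cells), near SELPLG, the P-selectin ligand (2.92 and 0.13), at the start of CLDN12, a claudin (1.90 and −0.06), and near RFX8 (2.56 and −0.10).

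Of the regions that TWEAK lowered in control cells, the one near PLEKHA7, an adherens junction protein (chr11:16980301-16983376), had 12.6 and 11.1 untreated and 3.10 and 2.90 with TWEAK in control cells. In Fn14 KO cells the same region had 14.7 and 13.3 untreated and 12.8 and 15.1 with TWEAK, and its effect was −2.02 ± 0.13 against 0.00 ± 0.13 (log2, SE, limma adjusted p 7.25e-07). Regions near LONRF2 (−1.60 in control, 0.05 in knockout cells), VOPP1 (−1.48 and 0.05), OAS2, an interferon-induced synthetase (−1.32 and 0.10), and INHBB, an inhibin subunit (−1.84 and −0.02), followed. In all 10 regions every knockout list lay on the untreated side of both control TWEAK lists. These regions were taken for their p, after the values were seen.

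Motif shares were set beside these effects. TGANTCA was in the middle 300 bp of 27.2% of the regions higher with TWEAK in control cells and 24.7% of those lower, beside 22.2% of the 32967. By presence, 33.5% of the regions that control cells gained held it, and 30.4% of those they lost. Without Fn14 the shares were 29.9% of gained, 31.7% of lost and 31.6% of mixed regions.

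Start sites of pathway genes, like all regions, had TWEAK effects in control cells and no call in knockout cells. Of the 135 genes, 101 had a start-site region in all 8 Hs578T lists. In control cells 27 of them were higher and 11 lower with TWEAK, beside 14.7% and 13.4% of all 32967 regions. These shares are also the background for the counts per list below. In Fn14 KO cells 0 passed, and 3 had an unadjusted p under 0.05, TIMP1, MAP3K7 and MAPK8, beside 2.18% of all regions. The median effect of the 101 start sites was 0.08 in control and 0.00 in knockout cells (log2). The effect differed between genotypes at 18 of the 101 start sites, beside 13.3% of all regions, and 7 of these 18 (TRAF2, CSF3, TSLP, FOS, FOSB, CD44 and ICAM1) kept that call in every alternative fit. The 18 genes were taken up for their adjusted p, after the values were seen.

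Receptors and ligands came first in the pathway. TNFRSF12A itself, a gene at chr16:3018445-3022383, kept a start-site peak in all 4 knockout lists, with a fold enrichment of 21.8 and 22.3 untreated and 19.8 and 22.0 with TWEAK. A histone mark at its promoter does not check the edit of its coding sequence. In control cells the same region had 34.0 and 32.6 untreated and 33.3 and 35.2 with TWEAK, above every knockout list, and its TWEAK effect was −0.00 ± 0.10 in control and −0.07 ± 0.10 in knockout cells (log2, SE). TNFSF12, the ligand gene, had a weak peak of 3.13 and 3.03 untreated and 2.75 and 3.16 with TWEAK. The related receptors TNFRSF1A (15.5, 13.8, 14.9 and 15 in the order untreated 1, untreated 2, TWEAK 1 and TWEAK 2) and LTBR (18.3, 14.6, 16.2 and 14.6) overlapped between treatments, as did TNFRSF10A (11.7, 10.5, 12.6 and 9.89). Of the 15 genes in this list 9 were tested, with 1 higher in control cells and none that differed between genotypes.

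Among TRAF, cIAP, NIK and IKK genes, 6 of 16 were higher with TWEAK in control cells and 3 differed between genotypes. TRAF2, the adaptor that carries the cIAP ligases, rose in control cells from 7.02 and 5.47 to 14.0 and 15 in fold enrichment, and in Fn14 KO cells it stood at 7.22 and 6.25 untreated and 7.27 and 6.44 with TWEAK. The effect was 1.18 ± 0.13 against 0.04 ± 0.13 (log2, SE, limma adjusted p 0.000372 for the difference). BIRC2 and BIRC3, which encode cIAP1 and cIAP2, rose by 0.53 each in control cells and had 0.04 and −0.05 in knockout cells (adjusted p 0.0197 and 0.0249). IKBKG, RIPK1 and TRAF1 had effects of −0.04, 0.06 and 0.03 without the receptor. MAP3K7, the kinase TAK1, was among the 3 with an unadjusted p under 0.05, at 12.1 and 13.3 untreated and 15.9 and 14.1 with TWEAK. MAP3K14, which encodes NIK, had 0.14 ± 0.11.

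All 5 NF-κB subunit genes had a peak in every list, and NFKB2 was the member that rose in control cells, from 13.4 and 13.3 to 23.2 and 21.7. In knockout cells NFKB2 had 12.2 and 14.0 untreated and 13.5 and 13.2 with TWEAK, an effect of 0.04 ± 0.11 (log2, SE) against 0.71 ± 0.11 (limma adjusted p 0.00699). NFKB1, RELB and RELA had knockout effects of 0.03, 0.15 and −0.05. Of the 10 NF-κB inhibitor genes, 5 rose in control cells and 3 differed between genotypes. TNIP1 stood at 45.0 and 39.6 untreated and 41.3 and 43.8 with TWEAK in the knockout, while its control lists went from 39.2 and 39.5 to 59.5 and 56.9 (adjusted p 0.0132). NFKBIA, which encodes IκBα, had 0.04 ± 0.12 in knockout and 0.61 ± 0.12 in control cells (adjusted p 0.031). CYLD was the third (adjusted p 0.0488), with −0.28 ± 0.17 in knockout and 0.45 ± 0.17 in control cells. Its control effect did not pass (limma adjusted p 0.053), and with quantile normalization the genotypes did not differ either (adjusted p 0.0631). TNFAIP3, near a lost region, had −0.13 at its start site, and BCL3 and NFKBIZ had −0.07 and 0.20.

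Of 25 cytokine and chemokine genes, 12 had a start-site peak in all 4 knockout lists and 10 in none, among them CCL20, CCL5 and CXCL11. CCL20 and CXCL11 had a start-site peak in both TWEAK lists and no untreated list of the control cells, and in no knockout list. CXCL3 stood at 4.51 and 4.76 untreated and 5.56 and 5.43 with TWEAK in the knockout, 0.25 ± 0.14 (log2, SE, limma p 0.089 unadjusted), and rose by 1.10 ± 0.14 in control cells (adjusted p 0.00731 for the difference). CSF3, the granulocyte growth factor, had −0.00 against 0.90 (adjusted p 0.00614), and TSLP had −0.03 against 1.14 (adjusted p 0.00319). CSF2, with the highest peak of this list, had 24.1 and 19.3 untreated and 22.3 and 19.2 with TWEAK in the knockout, and its effect differed from that in control cells at an adjusted p of 0.0423. CXCL2, LIF and IL6 had knockout effects of −0.09, −0.01 and 0.13.

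In the list of AP-1 and small MAF factors, 4 of 13 tested genes were lower and 1 higher with TWEAK in control cells. FOS fell there from 23.7 and 22.7 to 11 and 11.8, and FOSB from 17.5 and 17.4 to 9.81 and 10.0. Without Fn14, FOS had 29.1 and 30.5 untreated and 25.7 and 28 with TWEAK, an effect of −0.14 ± 0.10 (log2, SE), and FOSB 20.4 and 19.98 untreated against 19.8 and 20.8. The difference between genotypes was 0.93 ± 0.14 for FOS (limma adjusted p 0.000128) and 0.87 ± 0.14 for FOSB (adjusted p 0.000272). The 2 FOS groups did not overlap in the knockout, but the effect had an unadjusted p of 0.159. MAFK, with the highest peak of the list, and FOSL1 and JUND had knockout effects of −0.04, −0.02 and −0.02. In the JNK and p38 list, 12 genes were tested and none differed between genotypes. MAPK8, which encodes JNK1, had 10.5 and 9.34 untreated and 8.16 and 8.2 with TWEAK in the knockout (−0.27 ± 0.13, unadjusted limma p 0.0479), and DUSP10, DUSP1, DUSP16 and MAPK9 had 0.02, −0.10, 0.11 and 0.01.

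NAMPT had 26.4 and 25.1 untreated and 26.1 and 27.4 with TWEAK at its start site in knockout cells, an effect of 0.06 ± 0.11 (log2, SE). In control cells its start site fell from 27.9 and 24.1 to 21.4 and 17.8 (−0.45 ± 0.11), and the genotypes differed at a limma adjusted p of 0.0272. This fall is that of the start site alone. Within 50 kb of the NAMPT start, control cells had a gained region and no lost region. The study reports a super-enhancer downstream of NAMPT that TWEAK activates in triple-negative cells. The other NAD genes with high peaks, NADK, NMNAT1 and SIRT1, had −0.21, −0.00 and −0.04 in the knockout, and none of the remaining genes of the list differed between genotypes. Among invasion and matrix genes, 4 of 14 differed. ICAM1, an adhesion molecule, had 3.96 and 3.1 untreated and 3.33 and 2.65 with TWEAK in the knockout, and rose from 3.8 and 3.66 to 9.37 and 7.61 in control cells (adjusted p 0.00055). CD44 and PLAUR, the urokinase receptor, had −0.14 and −0.00 in the knockout against 0.58 and 0.54, and FN1, which encodes fibronectin, had 0.09 against −0.59. PLAU and ITGB1 had 0.07 and −0.10.

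TIMP1, an inhibitor of matrix metalloproteinases, had the highest knockout effect of all listed genes. Its start site stood at 4.51 and 4.09 untreated and 6.03 and 5.77 with TWEAK, 0.47 ± 0.15 (log2, SE), with groups that did not overlap, an unadjusted limma p of 0.00639 and no call after adjustment. In control cells the same site had 5.29 and 4.01 untreated and 4.52 and 4.36 with TWEAK, and the difference between genotypes had an adjusted p of 0.0956.

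**Figure D5:**
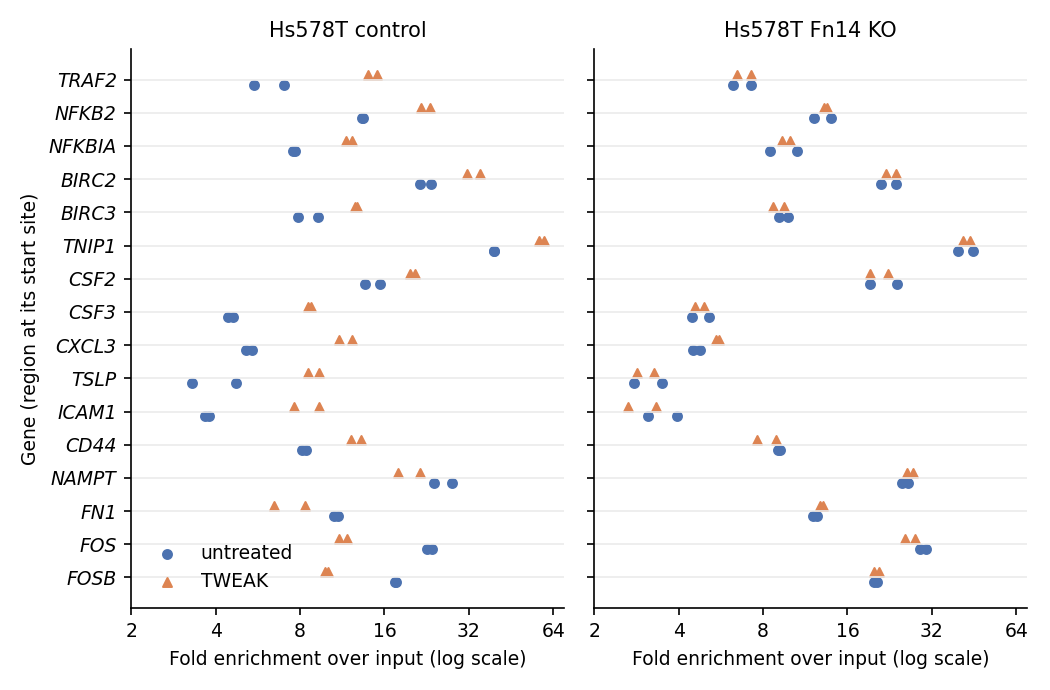
Fold enrichment over input (horizontal axis, log scale) at the start-site region of 16 genes, in Hs578T control (left) and Fn14 KO (right) lists. They are the 18 genes whose TWEAK effect differed between genotypes, without CYLD and PLAUR. Each point is 1 list. In control cells the treatments stand apart for each gene, as for FOS with 23.7 and 22.7 untreated and 11 and 11.8 with TWEAK. In Fn14 KO cells they lie closer, and overlap for all but CXCL3, FOS, CD44 and FN1.

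The lists were checked against markers of the line. Of the mesenchymal genes, AXL, ZEB1, VIM and FN1 had start-site peaks in all 4 knockout lists with fold enrichments from 12 to 23.2, and TWIST1 and CDH2 had none. Of the 10 genes of the luminal and hormone receptor list, ESR1, PGR, FOXA1 and CDH1 had no peak in any of the 4. The other 6, among them KRT8 (46.4, 45.7, 42.0 and 40.7), ERBB2 and EPCAM, had one in all 4. Of the 6 basal epithelial genes, 3 had a start-site peak in all 4 lists and 3 in none. PTPRC and CD3E of the immune list and VWF and KDR of the endothelial list had no start-site peak, and CD14 and CD8A had weak ones of 2.63 to 4.17 (fold enrichment). LYZ had one in 3 of the 4 lists, and PECAM1 of the endothelial list had one in all 4. None of the marker genes passed the test for a TWEAK effect in knockout cells.

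Peak number, covered length and large domains were compared per list. The untreated knockout lists held 45358 and 45666 peaks and the TWEAK lists 45802 and 45885, so the groups were apart by 331.5 peaks on average, with an exact permutation p of 0.333, the smallest this design allows (adjusted p 0.5 over the 3 measures). The peaks covered 88.5 and 87.2 Mb untreated and 88.9 and 87.7 Mb with TWEAK, groups that overlapped (exact permutation p 0.667). Large domains were formed by joining peaks at most 12.5 kb apart and keeping those with more base pairs under peaks than a cutoff. The curve of all domains in a list set its cutoff. The study called super-enhancers with ROSE. Here covered length stood in for read signal, which the lists do not hold, so these domains are not the study's super-enhancers. There were 1223 and 1261 in the untreated and 1432 and 1366 in the TWEAK lists (exact permutation p 0.333). The cutoffs differed, however, at 11.3 and 11 kb untreated and 10.4 and 10.6 kb with TWEAK. With 1 common cutoff of 10 kb the lists had 1559 and 1500 domains untreated and 1553 and 1536 with TWEAK, which overlap.

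Of 1559 merged large domains, 1053 (67.5%) were large in all 4 lists, 54 in both TWEAK lists alone and 7 in both untreated lists alone. The pairing by replicate number held 47 such domains and the crossed one 38, and each list had its own cutoff, lower in the TWEAK lists. The 54 had a median of 1.10 times as many base pairs under peaks with TWEAK as without, and none reached 1.5 times. They were picked by base pairs under peaks, so these ratios are raised by the choice and are no separate evidence. The domains with the highest ratios, named after their values were seen, lay near RHOBTB3, with 7.46 and 7.68 kb under peaks untreated and 10.9 and 11.1 kb with TWEAK, and at SOD2, the mitochondrial superoxide dismutase, with 10.8 and 9.26 kb against 14.9 and 11.9 kb. A region gained with TWEAK lay in 10 of the 54.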

How the data were processed

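H3K27ac ChIP-seq was analysed from 1 deposited peak list per sample, without pooling. Per the labels and the study's methods, the authors sheared chromatin to 200 to 500 bp, trimmed reads with Trimmomatic, used Bowtie2 for mapping to hg38 and MACS2 for calling peaks against input and removed blacklisted regions. Tool versions and the number of reads are not given in the sources used here, so depth is unknown. The deposited columns hold a score, the fold enrichment (a ratio over input), a −log10 p-value and a −log10 q-value per peak. A file score is 10 times the −log10 q-value, rounded down, and was not used further.

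Here peaks were merged per the stated rule in Python 3.11.15. Fold enrichment per region was the base-weighted mean of its peaks, and log2 values were centred on each list's median and tested with limma 3.58.1 (R 4.3.3) with an intensity trend, after a check on simulated data. Start sites were those of protein-coding transcripts of GENCODE 44 (±2 kb), and sequences came from the hg38 reference. Single values were tested by exact permutation over lists, two-sided. Replicate numbers gave no shared batch in the labels.

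Named regions were the 10 gained and 10 lost with the highest lower −log10 q-value and the 5 in each direction with the smallest limma p in knockout cells. Named genes were up to 20 in each direction gained or lost at the start site, listed genes within 50 kb of a called region, up to 4 per list with the highest fold enrichment, and TNFRSF12A, TNFSF12 and NAMPT. Some genes and sequences that this rule names are not reported here. Members and lists were chosen with earlier results of these data known. Alternatives were changed filters, overlaps, joining distances, scalings, left-out lists and a replicate block.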

Additional observations from a re-analysis of the deposited data

Results flagged for a closer look

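The TWEAK effect on H3K27ac fold enrichment differed between Fn14 KO and control Hs578T cells in 4378 of 32967 regions by the limma interaction test (adjusted p under 0.05), which is 13.3% of those tested. In 1952 the effect was higher and in 2426 lower in Fn14 KO cells. The number ranged from 2390 to 3830 when any 1 of the 8 lists was left out. Groups of 2 lists were too small for a test of single outlying samples.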

How the results depend on the processing

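The pairing by treatment gave fewer regions than the mean of the other pairings under all alternatives, with ratios from 0.648 to 0.999. The exact permutation p of 4 lists cannot fall under 0.333, so it could not pass 0.05 under any alternative and decides nothing here. With the highest-scoring 50% of each list, gained regions numbered 196 and lost regions 160, and none of the 20 named regions was called. Their weaker −log10 q-value was at most 5.98, and the median of each knockout list was 8.24 to 8.61. This filter therefore had to drop the named regions and says nothing about them. With at least 50% of the region covered there were 750 lost regions. With 1 list left out, one arm rests on 1 list, so that gained regions numbered 1444 to 2536, lost regions 1275 to 2280, genes gained at the start site 78 to 119 and genes lost 66 to 104. Genes lost numbered 34 at a −log10 q-value of at least 2. In limma, regions with higher fold enrichment numbered 0 in all fits but that without Fn14 KO TWEAK replicate 1, with 2, so 0 to 2 over left-out lists, and regions with lower fold enrichment 0 in every fit. Regions whose effect differed between genotypes numbered 2390 to 3830 over left-out lists, and the calls at the 18 named start sites held in 160 of 216 fits, with no change of sign. The difference in covered length (0.437 Mb) ran from −0.200 to 1.07 Mb over left-out lists, and that in large domains was 15 with a common cutoff, an alternative chosen after seeing the data. The difference in gained regions looked up in other lists (−3.67 points) turned to 0.247 with at least 50% of the region covered and to 0.274 at a −log10 q-value of at least 2, and that in lost regions (−4.93 points) shrank to −2.19 and −0.0347. The cause of these changes was not tested.

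Same-numbered knockout lists deviated together, with a correlation of 0.223 over 38425 regions, but 2 pairs and no shared batch in the labels give only a number in common. With a replicate block, the knockout fit again called 0 regions (905 higher and 1092 lower at an unadjusted p under 0.05). The interaction test called 5228 regions different between genotypes, and the ratio of pairings was 0.999. The exact permutation p for peak number, covered length and large domains was 0.5, the smallest that this blocked test can give, so it decides nothing. Those for gained and lost regions looked up were 0.375 and 0.312. The main fit had 4378 regions that differed between genotypes, so the replicate block changed calls of single regions. It kept all 18 calls at the named start sites and called none of the regions named from the knockout fit. With 2 lists a group and unknown depth, regions near the detection limit cannot be told from variation between lists.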
